A study of Mus with 14 samples.

Results

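The MHC class I presentation genes described here are 10 named genes that build, load and regulate the MHC class I molecule: B2m, H2-K1, H2-D1, Psmb8, Psmb9, Psme1, Tap1, Tap2, Tapbp and Nlrc5. They were taken by name from the 32285 genes counted in each of 14 single-cell RNA libraries, not by a rule on measured values. Earlier results of these data were known when they were chosen. All 10 had enough UMIs (unique molecular identifiers, each counting 1 captured mRNA molecule) to be tested in all cells and in the 8 lineages tested.

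The libraries come from bone marrow of mice that carry Dnmt3a-mutant or control blood, a model of clonal hematopoiesis, with and without knockout of a TNF receptor. Each library is 1 mouse: 3 mice of genotype MxCre (the control), 4 of genotype Dnmt3a, 3 of genotype Dnmt3a;Tnfr1KO and 4 of genotype Dnmt3a;Tnfr2KO. The labels do not give the Dnmt3a allele or its zygosity. CD45.2+ donor marrow was first mixed with CD45.1+ competitor marrow in aged, lethally irradiated CD45.1+ hosts, and those hosts of every genotype, the MxCre controls included, then received poly(I:C). Poly(I:C) is a synthetic double-stranded RNA that induces interferon and so switches on a Cre driven by the Mx1 promoter, and interferon is itself an inducer of class I genes. Marrow of these hosts was moved into further aged, irradiated hosts, and 20 weeks later the Lin-Kit+CD45.2+ cells, which are donor stem and progenitor cells, were sorted and loaded. The labels do not say which first hosts supplied which mice, so mice of 1 group may share a source, and p-values over mice would then be too small.

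MHC class I molecules show peptides from inside the cell to CD8 T cells, and natural killer cells read their absence. A heavy chain such as H2-K or H2-D folds with the light chain beta-2 microglobulin, and the immunoproteasome cuts the peptides that the TAP transporter carries into the endoplasmic reticulum, where tapasin helps to load them. Interferon raises most of these genes together through IRF1 and the transactivator NLRC5, and stem and progenitor cells of the marrow carry class I on their surface.

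Of the 10 genes, 7 lie on chromosome 17 in or beside the MHC, on the mouse assembly GRCm38.p6. From the low to the high coordinate these are Tapbp at chr17:33919478-33929290, H2-K1 at chr17:33996012-34000619, Psmb9 at chr17:34182030-34187330, Tap1 at chr17:34187556-34197225, Psmb8 at chr17:34198195-34201454, Tap2 at chr17:34204479-34216321 and H2-D1 at chr17:35263094-35267497. Psmb9, Tap1, Psmb8 and Tap2 sit side by side, with gaps of 225, 969 and 3024 bases between them. The light chain gene B2m lies apart at chr2:122147687-122153082, Psme1 at chr14:55578494-55581527 near its partner Psme2 (chr14:55587440-55591101), and Nlrc5 at chr8:94434335-94527272. H2-K1 and H2-D1 have near-identical relatives among the H2-Q, H2-T and H2-K2 genes, so how reads were split among these genes is uncertain.

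The 14 libraries held 3042 to 9724 barcodes each, and 66895 cells in all were kept, between 1924 (Dnmt3a replicate 1) and 7265 (Dnmt3a;Tnfr2KO replicate 1) per mouse. Total UMIs per library ran from 62416022 to 162869740, and the kept cells of a mouse held 64085 to 192723 UMIs of B2m and 521 to 1349 of Nlrc5. Dnmt3a replicate 1 stands apart: of its 7257 barcodes, 5138 had under 1000 UMIs. It kept 26.5% of its barcodes, the other 13 libraries kept 63.2 to 91.6%, and its kept cells were the deepest. Dnmt3a replicate 4 held 38.4% B-like cells. Pairs of libraries shared 1 to 16 barcodes. Transcript levels of the targeted genes checked the labels in part. Tnfrsf1b, which encodes TNF receptor 2, was at 4.30, 5.48, 5.08 and 5.46 CPM (counts, here UMIs, per 1000000 UMIs of the mouse or lineage, after edgeR's TMM scaling, whose factors ran from 0.887 to 1.17 over the 14 mice) in the Dnmt3a;Tnfr2KO mice and at 10.4 to 16.97 in the other 10 mice. Tnfrsf1a, which encodes TNF receptor 1, was at 42.0, 33.9 and 38.5 in the Dnmt3a;Tnfr1KO mice and at 32.3 to 53.0 in the Dnmt3a mice, so its transcript does not tell these labels apart and each statement below is about the libraries labelled Dnmt3a;Tnfr1KO. The Dnmt3a transcript was at 22.4 to 28.2 in the MxCre mice, 27.9 to 33.0 in the Dnmt3a mice, 21.4 to 22.3 in the Dnmt3a;Tnfr1KO mice and 22.7 to 25.2 in the Dnmt3a;Tnfr2KO mice. It was not lower in the Dnmt3a mice, and with the allele not given this level does not check their label.

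Cells were put into lineages by marker UMIs, without use of any of the 10 genes, and each name below means cells that met the marker rule. A cell with at least 1 UMI of Hlf, a transcription factor of blood stem cells, and no other lineage is called Hlf-positive (7406 cells). Cells rich in Mpo, Elane, Prtn3, Ctsg or Ms4a3 are called granule-gene progenitors (24810 cells). The others are monocyte-like (11024 cells), granulocyte-like (4245), megakaryocyte-like (1672), erythroid-like (4156), basophil/mast-like (1368), B-like (3073) and T/NK-like (187) cells, and 8930 cells were unassigned. A gene outside the marker lists was highest in its own lineage for 6 of 7 lineages, such as Mecom in Hlf-positive cells at 57.1 CPM and Lcn2 in granulocyte-like cells at 2654. The exception was Ctss, at 46.0 in monocyte-like and 136 in B-like cells. A sum per mouse and lineage was used where the mouse had at least 20 such cells, which left 14 mice for most lineages, 12 for megakaryocyte-like cells (without Dnmt3a replicates 3 and 4), 8 for B-like cells (none of them Dnmt3a;Tnfr2KO) and 2 for T/NK-like cells.

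The first question was where in the progenitor tree the class I genes are expressed. Hlf-positive cells had more B2m, H2-K1 and Nlrc5 per UMI than most other progenitors, monocyte-like cells and granule-gene progenitors had more Psmb8, and erythroid-like cells had less of 9 of the 10 genes. Each lineage was compared with the Hlf-positive cells of the same mice, with the mouse as a block, using edgeR's quasi-likelihood test adjusted over all genes (called at an adjusted p below 0.05). Of the 10 members, 6 were called in granule-gene progenitors (82.8% of all genes tested), 9 in monocyte-like cells (85%), 9 in granulocyte-like cells (82.5%), 8 in megakaryocyte-like cells (59.6%), 9 in erythroid-like cells (78.6%), 9 in basophil/mast-like cells (57.2%) and 3 in B-like cells (37.1%). The share of members called was below the share of all genes in granule-gene progenitors and B-like cells and above it in the other 5 lineages, by the most in basophil/mast-like cells, where 3 members were called without the mouse as a block. Since most genes are called in 6 of these comparisons, the direction and size for each gene say more than the counts.

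**Figure D1:**
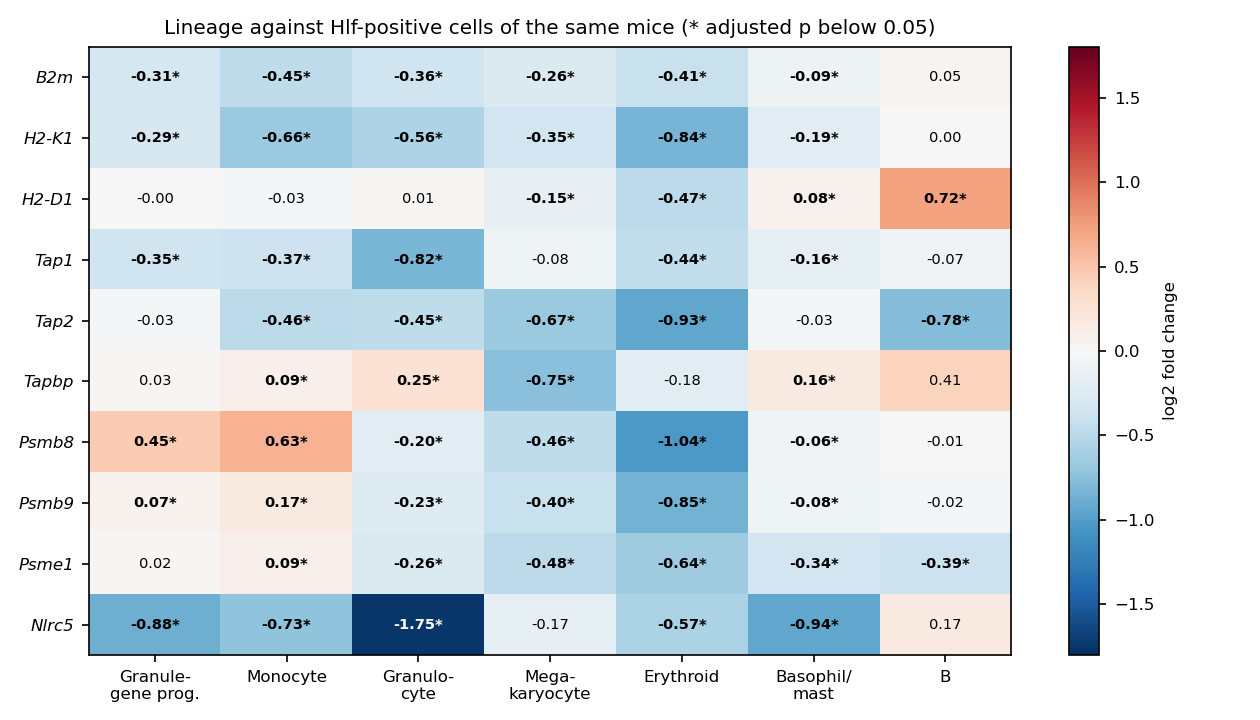
Log2 fold change of each of the 10 genes (vertical axis) in 7 lineages (horizontal axis) against Hlf-positive cells of the same mice, as color and number, with a star where edgeR's adjusted p is below 0.05. The erythroid column is lower for 9 starred genes, Psmb8 is starred higher in 2 columns only, and Nlrc5 reaches -1.75 in granulocyte-like cells.

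The light chain gene B2m was highest in T/NK-like, B-like and Hlf-positive cells. In Hlf-positive cells its median over 14 mice was 1195 CPM, from 831 to 1643, and in monocyte-like cells it was 855, from 623 to 1223. B2m was lower than in Hlf-positive cells in 6 lineages, by log2 fold changes from -0.45 (SE 0.0224, edgeR adjusted p = 5.55e-14) in monocyte-like cells to -0.09 (SE 0.0231, adjusted p = 0.00146) in basophil/mast-like cells. The last of these is small and turned to 0.0336 (adjusted p = 0.531) when lineages were assigned from cells thinned to equal depth. That setting also left out 62 to 1812 cells per library, 6846 in all. In B-like cells the fold change was 0.05 (SE 0.114, adjusted p = 0.805), and the 2 mice with enough T/NK-like cells had 1485 and 2727. The order of the medians over the 8 lineages does not separate any neighbours by more than the larger SD over mice.

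The heavy chain genes H2-K1 and H2-D1 had different profiles over the lineages. H2-K1 had a median of 1162 in Hlf-positive cells, from 779 to 1324, and was lower in 6 lineages. Its largest differences were in erythroid-like cells (-0.84, SE 0.0980, adjusted p = 3.16e-07), monocyte-like cells (-0.66, SE 0.0250, adjusted p = 5.81e-16) and granulocyte-like cells (-0.56, SE 0.0317, adjusted p = 7.56e-13). H2-D1 was much flatter, with medians of 767 in Hlf-positive cells, 750.4 in granule-gene progenitors, 747 in monocyte-like cells and 772 in granulocyte-like cells. Without TMM scaling it was not flat, with mean log2 differences from Hlf-positive cells of -0.26, -0.30 and -0.40 in these 3 lineages. H2-D1 was lower in erythroid-like cells (-0.47, SE 0.0414, adjusted p = 6.54e-09) and higher in B-like cells (0.72, SE 0.0979, adjusted p = 8.48e-05). In B-like cells it reached 1703 and 1083 in the MxCre mice, 735, 1011 and 1469 in Dnmt3a replicates 1, 3 and 4, and 1135, 1685 and 1384 in the Dnmt3a;Tnfr1KO mice, of which only Dnmt3a replicate 1 lay below the highest Hlf-positive value of 892. The 2 mice with enough T/NK-like cells had 2447 and 3224 for H2-K1 and 1762 and 2578 for H2-D1.

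The balance of the 2 heavy chain genes differed between lineages. The ratio of H2-K1 to H2-D1 UMIs within a mouse had a median of 1.53 in Hlf-positive cells, from 1.34 to 1.60 over the 14 mice. It was 0.960 in monocyte-like cells, from 0.874 to 1.08, so that the ranges did not overlap. It was lower than in the Hlf-positive cells of the same mouse in every mouse and in all 7 lineages, with mean log2 differences of -0.63 in monocyte-like cells, -0.57 in granulocyte-like cells and -0.72 in B-like cells. An exact paired permutation test, two-sided, gave an unadjusted p = 0.000122 in monocyte-like and granulocyte-like cells, the smallest it can give for 14 mice. Adjusted over the 28 ratio tests made, p was 0.000214 in these lineages and 0.00951 in the 8 mice with B-like cells. The ratios were chosen after the levels of these genes were seen, and reads shared with the near-identical relatives could weigh on them; that was not tested.

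**Figure D2:**
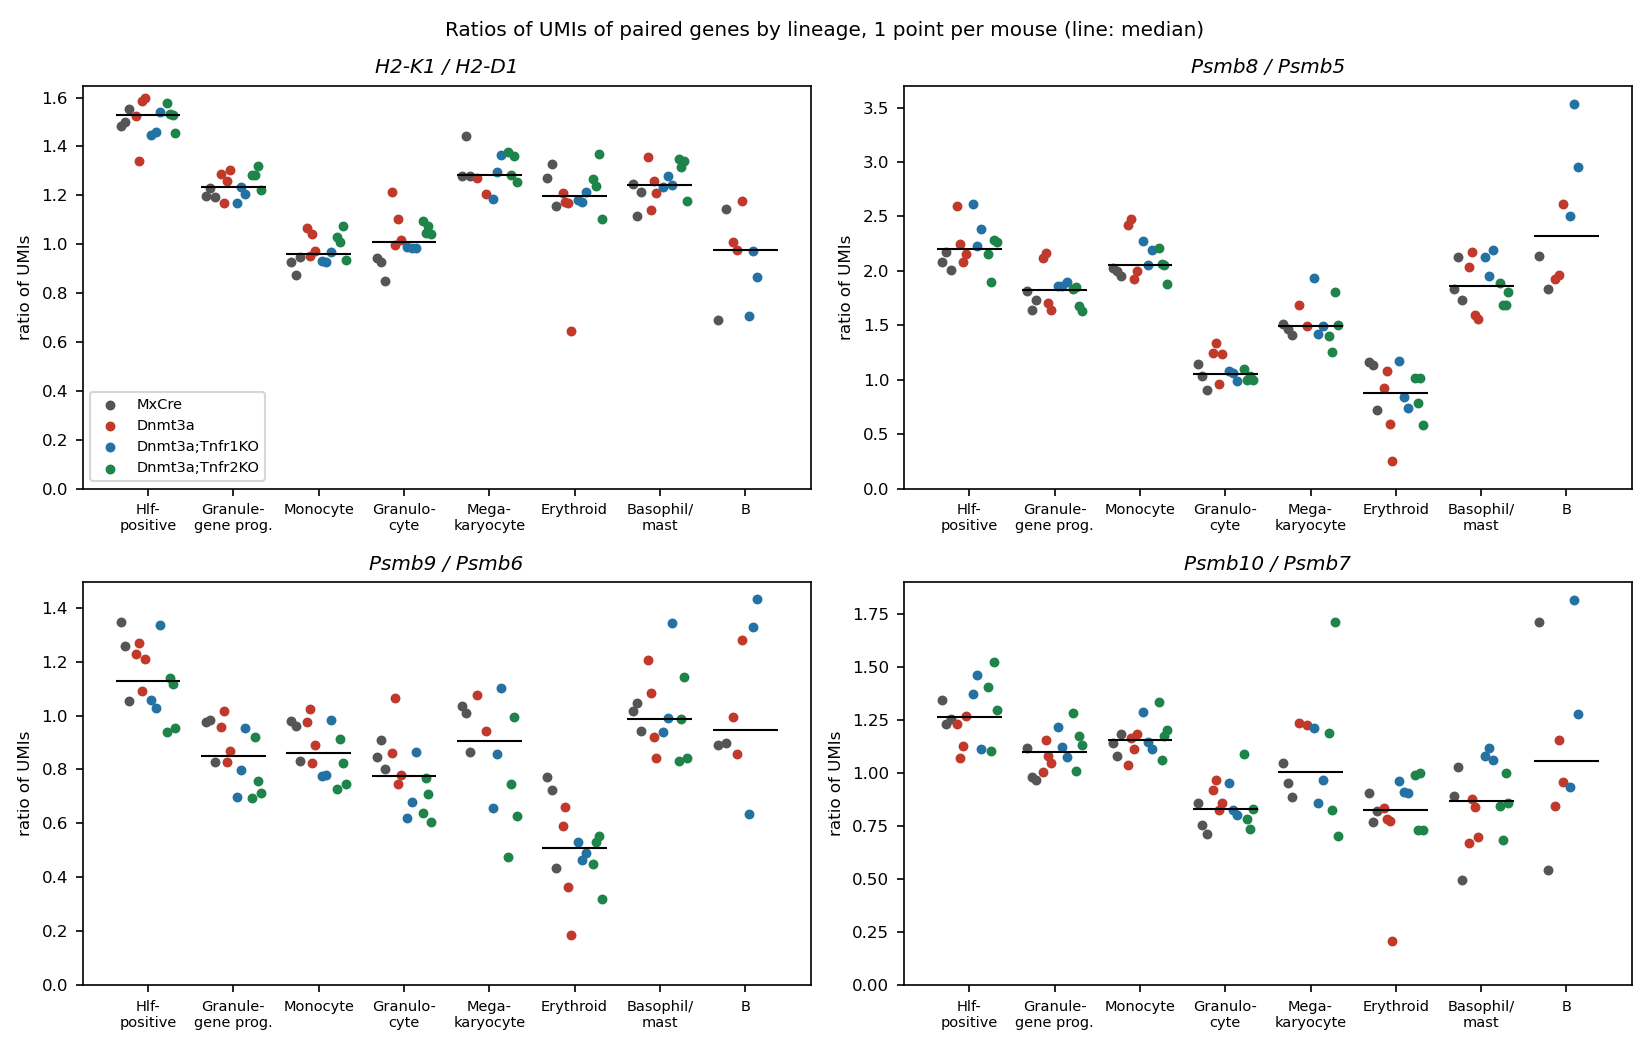
Ratio of UMIs of paired genes (vertical axes, linear from 0) in 8 lineages (horizontal axes), with 1 point per mouse colored by group and a line at the median over mice. H2-K1 to H2-D1 falls from a median of 1.53 in Hlf-positive cells to 0.960 in monocyte-like cells, and the 3 ratios of an immunoproteasome gene to its constitutive counterpart are low in erythroid-like and granulocyte-like cells.

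The products of the immunoproteasome genes Psmb8 and Psmb9 replace the constitutive subunits encoded by Psmb5 and Psmb6. By medians over the lineages tested, both genes were highest in monocyte-like cells and lowest in erythroid-like cells. The 2 mice with enough T/NK-like cells, which were not tested, had 545 and 877 CPM of Psmb8. Psmb8 was at 769, 643 and 714 CPM in monocyte-like cells of the MxCre mice, at 596, 757, 688 and 638 in Dnmt3a, at 854, 772 and 706 in Dnmt3a;Tnfr1KO and at 775, 722, 819.5 and 699.6 in Dnmt3a;Tnfr2KO mice. Every one of these values is above the highest Hlf-positive value of 587, while without TMM scaling the ranges overlap (597 to 755 against 466 to 629). Psmb8 was higher than in Hlf-positive cells by 0.63 (SE 0.0260, adjusted p = 2.67e-15) in monocyte-like cells and by 0.45 (SE 0.0233, adjusted p = 4.56e-14) in granule-gene progenitors. It was lower, at -0.46 (SE 0.0296, adjusted p = 1.35e-13) in megakaryocyte-like and -1.04 (SE 0.125, adjusted p = 5.03e-07) in erythroid-like cells. Psmb8 also had the clearest order of lineages: 4 of its 7 neighbouring medians differed by more than the larger SD, with monocyte-like cells (718) above granule-gene progenitors (631), these above B-like cells (479), granulocyte-like cells (409) above megakaryocyte-like cells (333), and these above erythroid-like cells (249). Psmb9 followed with smaller steps, at medians of 250.4 in monocyte-like, 218 in Hlf-positive and 128 in erythroid-like cells. Without TMM scaling it was lower in monocyte-like than in Hlf-positive cells, by a mean log2 difference of -0.10.

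Measured against their constitutive counterparts, the immunoproteasome genes ranked the lineages differently. The ratio of Psmb8 to Psmb5 had a median of 2.2 in Hlf-positive cells, from 1.89 to 2.61, and 2.05 in monocyte-like cells, where it was lower in 11 of 14 mice (exact paired permutation test, adjusted p = 0.0317). It was 1.05 in granulocyte-like cells and 0.880 in erythroid-like cells, with mean log2 differences of -1.05 and -1.46 from Hlf-positive cells and lower values in every mouse. Psmb5 itself was higher than in Hlf-positive cells in all 3, by 0.70 (SE 0.0245, edgeR adjusted p = 1.48e-16) in monocyte-like, 0.84 (SE 0.0316, adjusted p = 5.86e-16) in granulocyte-like and 0.40 (SE 0.0415, adjusted p = 6.8e-08) in erythroid-like cells. B-like cells had a median ratio of Psmb8 to Psmb5 of 2.32, on as few as 20 UMIs of a gene. It was higher than in Hlf-positive cells in 4 of 8 mice (exact paired permutation test, adjusted p = 0.555). The 2 mice with enough T/NK-like cells had ratios of 3.6 and 4.49. The ratio of Psmb9 to Psmb6 was 1.13 in Hlf-positive, 0.862 in monocyte-like and 0.510 in erythroid-like cells. The third immunoproteasome gene, Psmb10, had a ratio to Psmb7 of 1.26 in Hlf-positive, 0.830 in granulocyte-like and 0.828 in erythroid-like cells.

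Erythroid-like cells of Dnmt3a replicate 4 stand apart from the other 13 mice and touch each erythroid value. Hemoglobin genes made up 37.3% of their UMIs, against 0.110 to 3.87% in the other mice, and Psmb8 was at 63.4 CPM (146 UMIs), against 182 to 384. The TMM factor of this sum was 0.552, against 0.893 to 1.135 in the other mice, and its Psmb8 before scaling was 34.97 UMIs per 1000000. Without this library the erythroid fold changes were -0.93 for Psmb8, -0.76 for Psmb9, -0.75 for H2-K1 and -0.41 for B2m, and all 10 members were called, since Tapbp (-0.25, adjusted p = 5.95e-05) then passed too.

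Psme1 encodes a subunit of the PA28 cap that opens the proteasome. After TMM scaling its level was nearly the same in granule-gene progenitors (median 382) and Hlf-positive cells (373), with a fold change of 0.02 (SE 0.0195, adjusted p = 0.471). The factors ran from 0.870 to 1.16 in granule-gene progenitors and from 1.06 to 1.35 in Hlf-positive cells, so this evenness rests on the scaling. Psme1 was lower in erythroid-like cells (-0.64, SE 0.0573, adjusted p = 9.94e-09) and megakaryocyte-like cells (-0.48, SE 0.0306, adjusted p = 1.3e-13). The TAP transporter genes were both lower in monocyte-like (Tap1 -0.37, Tap2 -0.46), granulocyte-like and erythroid-like cells. In monocyte-like cells the sizes ran over 12 alternatives from -0.37 to -0.22 for Tap1 and from -0.78 to -0.38 for Tap2. The TAP genes were called apart from each other in the other 4 lineages. Tap1 alone was called in granule-gene progenitors and basophil/mast-like cells, and Tap2 alone in megakaryocyte-like and B-like cells. Tap1 was lowest in granulocyte-like cells, at a median of 48.3 against 87.1 in Hlf-positive cells (-0.82, SE 0.0367, adjusted p = 1.09e-14), and did not pass the test in megakaryocyte-like cells (-0.08, SE 0.0401, adjusted p = 0.0971). Tap2 was instead lowest in erythroid-like (-0.93, SE 0.0887, adjusted p = 2.02e-08), B-like (-0.78, SE 0.138, adjusted p = 0.000661) and megakaryocyte-like cells (-0.67, SE 0.0513, adjusted p = 6.02e-12). Tapbp, which encodes tapasin, was higher in granulocyte-like cells (0.25, SE 0.0570, adjusted p = 0.000357; -0.17 without TMM scaling) and lower in megakaryocyte-like cells (-0.75, SE 0.0603, adjusted p = 1.65e-11).

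The transactivator gene Nlrc5 had the widest range of fold changes of the 10 genes. Its median was 11.8 CPM in Hlf-positive cells, from 8.28 to 16.2, and 3.74 in granulocyte-like cells, from 1.73 to 5.6, so the ranges did not overlap. That is a log2 fold change of -1.75 (SE 0.106, adjusted p = 2.01e-12), on as few as 5 UMIs in 1 mouse (MxCre replicate 3). Sizes moved over the alternatives in more than 1 lineage, such as Nlrc5 in basophil/mast-like cells, from -1.48 to -0.87. In granulocyte-like cells the sizes depended on the lineage rule. With at least 4 markers, and with cells thinned for the rule, they were -2.37 and -2.68 for Nlrc5, -0.84 and -0.94 for H2-K1, and -0.64 and -0.89 for Psmb8 (-0.20 by the rule used), which puts Psmb8 below its megakaryocyte-like fold changes of -0.51 and -0.67. Nlrc5 was also lower in basophil/mast-like cells (-0.94, SE 0.122, adjusted p = 1.13e-07) and granule-gene progenitors (-0.88, SE 0.0651, adjusted p = 2.67e-11). In megakaryocyte-like cells Nlrc5 was at -0.17 (SE 0.110, adjusted p = 0.185). The 2 mice with enough T/NK-like cells had 57.4 and 96.0, above every value in any other lineage; with 80 and 40 such cells there was no test.

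UMIs per cell differ between the lineages, with medians over mice of 15598 in Hlf-positive, 32598 in monocyte-like, 28881 in erythroid-like and 5683 in B-like cells. All levels here are CPM after TMM scaling, not amounts per cell, and the part of cell size in them was not tested. The scaling weighs on the comparison of lineages: TMM factors ran from 1.06 to 1.35 in Hlf-positive cells and from 0.775 to 1.08 in granulocyte-like cells. Without it the differences from Hlf-positive cells shift by -0.42 (granulocyte-like) to -0.01 (megakaryocyte-like) on the log2 scale. Of the 53 calls of a member in a lineage, 6 then change sign, each from higher to lower: Psmb9 in granule-gene progenitors and monocyte-like cells, Tapbp in monocyte-like and granulocyte-like cells, Psme1 in monocyte-like cells and H2-D1 in basophil/mast-like cells. Ratios of 2 genes in the same cells do not depend on the scaling.

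Other genes of the pathway, taken from a list of 42, are given by role. Of all genes, 39.6% were called higher and 43.1% lower in granule-gene progenitors than in Hlf-positive cells, and 41.2 and 43.8% in monocyte-like cells. Of 10 tested heavy chain and class I-like genes, 9 were lower and 0 higher in granule-gene progenitors than in Hlf-positive cells, with a list median of -1.03 (all genes -0.03), and 9 were lower and 1 higher in monocyte-like cells, with a median of -1.59. H2-Q7 was the furthest in monocyte-like cells at -2.38, and the exception was H2-M3, which presents formylated peptides, at 0.45. Of 11 genes for peptide supply and loading, 11 were higher and 0 lower in granule-gene progenitors (median 0.52), and 10 were higher and 0 lower in monocyte-like cells (median 0.57). Without TMM scaling 10 of the 11 and 10 of the 10 stay higher. The same list had 9 higher and 2 lower in granulocyte-like cells (40.8 and 41.7% of all genes), of which 6 stay higher without the scaling. It was mixed elsewhere, with 5 higher and 4 lower in erythroid-like cells (38.4 and 40.2%), 5 and 3 in basophil/mast-like cells (28.4 and 28.8%), 4 and 4 in megakaryocyte-like cells (29.5 and 30.1%) and 0 and 1 in B-like cells (15.9 and 21.2%). The members of this list in granule-gene progenitors and monocyte-like cells included Calr, the chaperone calreticulin, at 1.99 and 1.86, and Psme2, the partner of Psme1, at 0.58 and 0.80. Of 17 regulators, 13 were lower and 4 higher in both, and 2 and 3 of these 4 stay higher without the scaling. In erythroid-like cells 10 regulators were lower and 3 higher, among the lower ones Irf1 at -2.20 and the inhibitor Socs1 at -3.26. In B-like cells 7 regulators were higher and 1 lower.

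The next question was whether the Dnmt3a genotype changes the class I genes. B2m was lower in the Dnmt3a mice than in the MxCre mice, in all cells together and in 5 of the 8 lineages tested, and no other member passed the test in all cells. Over all kept cells B2m was at 1391, 1162 and 1025 CPM in the MxCre mice and at 706, 945, 672 and 808 in the Dnmt3a mice. The groups did not overlap, with Dnmt3a replicate 2 the nearest to the controls. Means were 1192 ± 185 (SD, n = 3) and 783 ± 123 (SD, n = 4), a log2 fold change of -0.61 (SE 0.134, edgeR adjusted p = 0.0421). The 1 member called compares with 2.38% of the 15643 genes tested. In these sums over a mixed sort, fewer cells of a type and less RNA per cell cannot be told apart. Hlf-positive cells, which have the higher B2m, had a median share of 17.2% in the MxCre mice and 11.5% in the Dnmt3a mice, and granule-gene progenitors 22.95 and 34.7%.

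The call for B2m in all cells sits at the threshold. Adjusted p was 0.134, 0.0986 and 0.125 without MxCre replicate 1, 2 or 3, 0.0810 and 0.0745 without Dnmt3a replicate 1 or 3, and 0.0505 to 0.0653 without any 1 of the Dnmt3a;Tnfr1KO mice or of Dnmt3a;Tnfr2KO replicates 1 to 3. The fold change stayed between -0.71 and -0.48 over 22 alternatives. It was -0.65 (adjusted p = 0.0327) without B-like and T/NK-like cells, whose share differs among the mice.

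**Figure D3:**
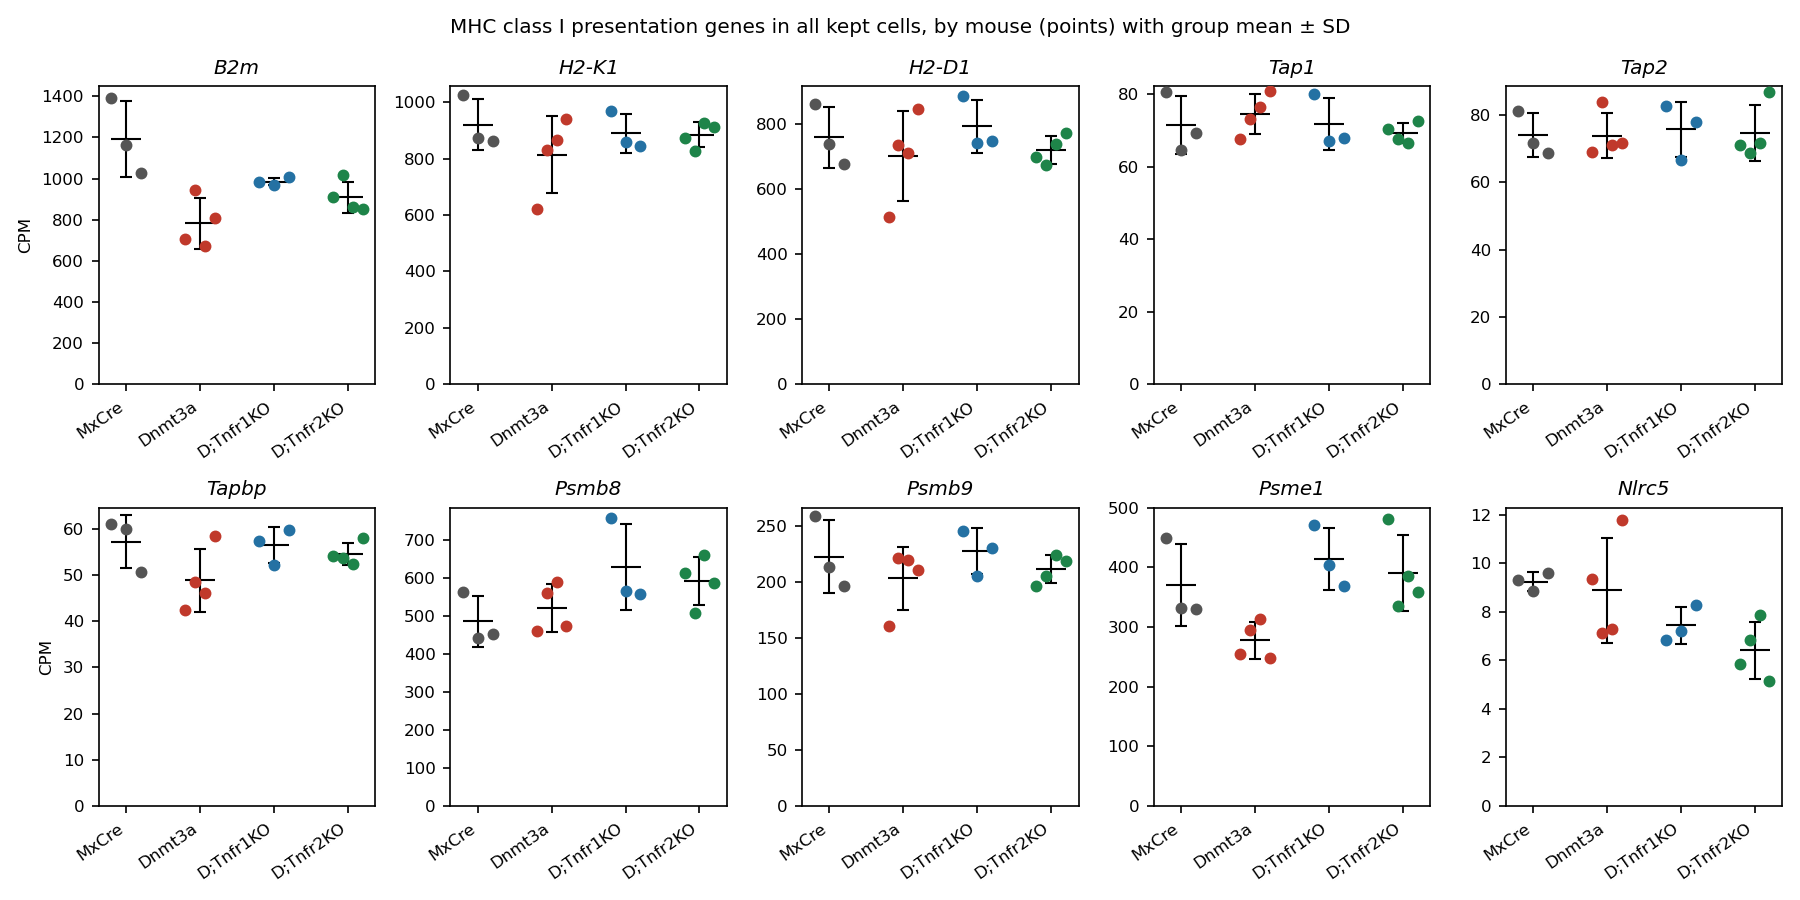
CPM (vertical axes, linear from 0) of the 10 genes in all kept cells of each mouse (points), by group, with the group mean and SD (black); D;Tnfr1KO and D;Tnfr2KO stand for Dnmt3a;Tnfr1KO and Dnmt3a;Tnfr2KO. B2m lies below all 3 MxCre mice in all 11 other mice, and Psme1 is lower in the 4 Dnmt3a mice than in each of the other 10.

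Of the 8 lineages, B2m was called lower in 5. In Hlf-positive cells B2m was at 1643, 1452 and 1311 in the MxCre mice and at 831, 1177, 836 and 858 in the Dnmt3a mice, a log2 fold change of -0.65 (SE 0.132, edgeR adjusted p = 0.0129). This call held in 21 of 23 alternatives and was lost without MxCre replicate 1 (adjusted p = 0.0516) or 2 (adjusted p = 0.0584). B2m was also called in granule-gene progenitors (-0.58, SE 0.138, adjusted p = 0.0310), monocyte-like cells (-0.56, SE 0.130, adjusted p = 0.0390), granulocyte-like cells (-0.62, SE 0.144, adjusted p = 0.0355) and basophil/mast-like cells (-0.66, SE 0.145, adjusted p = 0.0361). Of all genes, 4.81% were called in Hlf-positive cells, 4.52% in granule-gene progenitors, 2.66% in monocyte-like, 2.34% in granulocyte-like and 0.704% in basophil/mast-like cells. B2m did not pass in megakaryocyte-like cells (-0.56, SE 0.173, adjusted p = 0.0806), erythroid-like cells (-0.72, SE 0.201, adjusted p = 0.179) or B-like cells (-0.64, SE 0.291, adjusted p = 0.301). With Psme1 in granule-gene progenitors (-0.52, SE 0.137, adjusted p = 0.0446), 6 pairs of a member and a lineage were called of 80 tested (7.5%), against 2.55% of all pairs of gene and lineage. The Psme1 call was lost in 12 of 23 alternatives, with adjusted p up to 0.21 and a fold change of -0.38 without MxCre replicate 1. Tapbp in granule-gene progenitors was at 44.3 to 53.8 in the Dnmt3a mice and at 56.8 to 62.7 in the MxCre mice. It was not called there by the fit used, though it was by DESeq2, with RLE scaling and without Dnmt3a replicate 4.

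These lineages come from the same mice and are not separate evidence. In each of the 7 lineages other than B-like cells, Dnmt3a replicate 2 had the highest B2m of the Dnmt3a mice. In granule-gene progenitors B2m was at 1325, 1134 and 947 in the MxCre mice and at 729.7, 955, 671 and 731 in the Dnmt3a mice, so there the groups overlapped by this 1 mouse. In erythroid-like cells the MxCre mice ranged from 834 to 1506 and the Dnmt3a mice from 548 to 965. Each of the other 4 calls for B2m was lost when single libraries were left out, among them MxCre replicates 1 and 2 and Dnmt3a replicates 1 and 3 in every case, and the fold change stayed between -0.78 and -0.41.

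**Figure D4:**
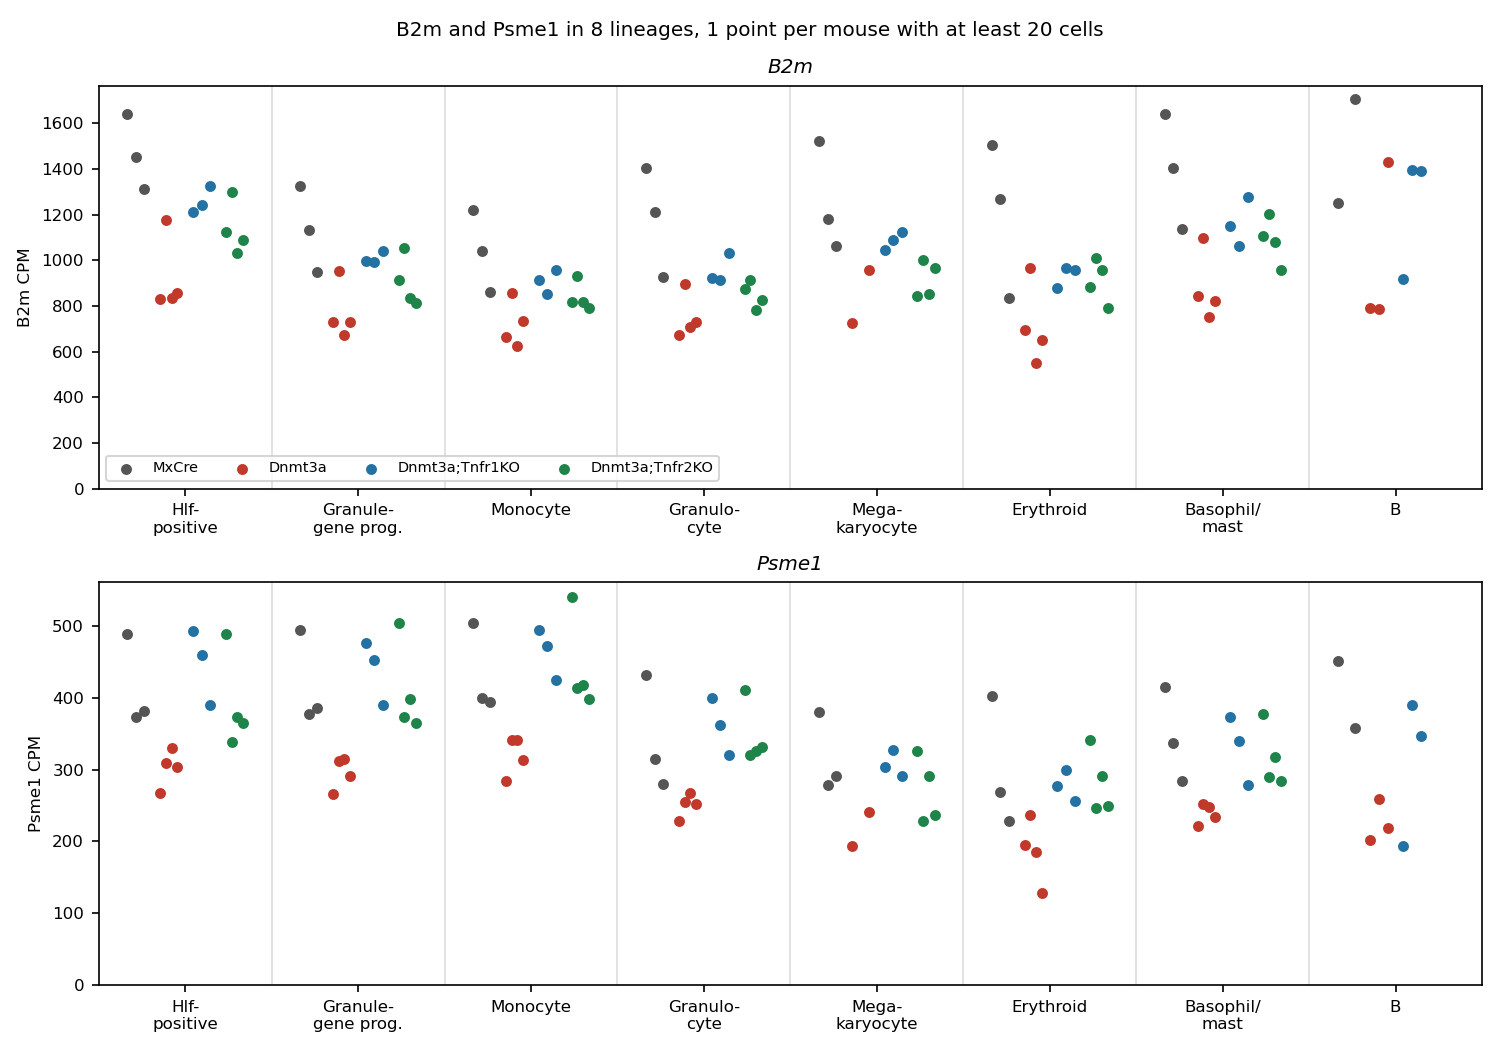
CPM (vertical axes, linear from 0) of B2m (top) and Psme1 (bottom) in 8 lineages (horizontal axis), with 1 point per mouse with at least 20 cells, colored by group. In Hlf-positive cells the 4 Dnmt3a mice lie at 831 to 1177 for B2m, below the MxCre mice at 1311 to 1643. For Psme1 the Dnmt3a mice are the lowest of all in the Hlf-positive, granule-gene, monocyte, granulocyte and basophil/mast columns. The columns hold the same mice, and the share of all genes that separate so within a lineage was not taken.

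The heavy chain genes did not follow B2m. H2-K1 was at 1024, 871 and 864 CPM in the MxCre mice and at 619.9, 829, 864 and 939 in the Dnmt3a mice (-0.18, SE 0.132, adjusted p = 0.447). H2-D1 was at 859.9, 737 and 675 and at 512, 734, 711 and 844 (-0.11, adjusted p = 0.697). The groups overlapped for both, and Dnmt3a replicate 1, the library with many shallow barcodes, was the lowest mouse for each. Across the 14 mice H2-K1 and H2-D1 tracked each other (Pearson r = 0.935, permutation p = 3.0e-05, adjusted over 6 pairs 0.00018; Spearman rho = 0.754, adjusted p = 0.0126), with r = 0.792 without the 2 mice farthest from the median and 0.974 within groups. B2m and H2-K1 gave r = 0.496 (permutation, adjusted p = 0.0791) and rho = 0.0813 (adjusted p = 0.784). Both values of a pair share a library and its scaling.

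Of the other members, 6 lay within 0.25 of 0 on the log2 scale between Dnmt3a and MxCre mice: Tap1 (0.06), Tap2, Tapbp (-0.23), Psmb8 (0.10), Psmb9 (-0.13) and Nlrc5 (-0.06), with adjusted p from 0.23 to 0.996. Psme1 was at 449, 331 and 331 in the MxCre mice and at 256, 295, 313 and 247 in the Dnmt3a mice (-0.42, SE 0.154, adjusted p = 0.128); the groups did not overlap. Together 2 members, B2m and Psme1, were lower without overlap, where 9.15% of all genes are. By sign 8 of the 10 members were lower, with a median of -0.12 against 0.03 for all genes.

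The third question was what loss of a TNF receptor adds to the Dnmt3a genotype. Psme1 was higher in both receptor knockout groups than in the Dnmt3a mice, past the threshold in granule-gene progenitors and monocyte-like cells though not in all cells. Over all cells it was at 471, 404 and 369 in the libraries labelled Dnmt3a;Tnfr1KO and at 482, 336, 386 and 359 in the Dnmt3a;Tnfr2KO mice, each value above the highest Dnmt3a mouse at 313. The fold changes against Dnmt3a were 0.58 (SE 0.153, adjusted p = 0.0904) and 0.49 (SE 0.143, adjusted p = 0.0931). The 2 comparisons share the 4 Dnmt3a mice, so the shared direction is not 2 findings. The 4 Dnmt3a mice lay below each of the other 10 for Psme1, as is the case for 1.29% of all genes.

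By edgeR 0 members were called over all cells against Dnmt3a in either knockout group (0.505% of all genes for Dnmt3a;Tnfr1KO and 0.876% for Dnmt3a;Tnfr2KO), with 2 members at an unadjusted p below 0.05 in both (19.7 and 23.1% of all genes). DESeq2 called 1 member, Psme1, in both (6.51 and 7.01% of the genes to which it gave an adjusted p). By range, B2m and Psme1 were higher without overlap in the libraries labelled Dnmt3a;Tnfr1KO (6.1% of all genes), and Psme1 in Dnmt3a;Tnfr2KO (3.89%). These ranges are of scaled levels. TMM factors ran from 0.962 to 1.09 in the MxCre and from 1.03 to 1.17 in the Dnmt3a mice. They ran from 0.887 to 0.983 in the Dnmt3a;Tnfr1KO and from 0.907 to 0.999 in the Dnmt3a;Tnfr2KO mice. Without the scaling, B2m of the Dnmt3a;Tnfr1KO mice would overlap with that of the Dnmt3a mice. Psme1 would still be lowest in the Dnmt3a mice, by smaller differences. The genotype tests were not run without the scaling. B2m was at 981, 969 and 1006 in the libraries labelled Dnmt3a;Tnfr1KO (0.33, adjusted p = 0.201 against Dnmt3a) and at 912, 1015, 859.9 and 851 in the Dnmt3a;Tnfr2KO mice (0.22, adjusted p = 0.305). After scaling those values lie between the Dnmt3a and MxCre means, and neither difference passed the test. The members' median was 0.17 against -0.05 for all genes in the first comparison and 0.09 against -0.03 in the second.

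Within lineages the Psme1 difference passed the test in granule-gene progenitors and monocyte-like cells, and whether it varies between lineages was not tested. In granule-gene progenitors Psme1 was at 495, 377 and 386 in MxCre, 266, 312, 316 and 291 in Dnmt3a, 476, 452 and 391 in Dnmt3a;Tnfr1KO and 504, 373, 399 and 365 in Dnmt3a;Tnfr2KO mice. The Dnmt3a mice are the 4 lowest, and the 3 other groups overlap. Against Dnmt3a the fold changes were 0.59 (SE 0.137, edgeR adjusted p = 0.0268; 5.23% of genes called there) for Dnmt3a;Tnfr1KO and 0.48 (SE 0.128, adjusted p = 0.0432; 5.29%) for Dnmt3a;Tnfr2KO. In monocyte-like cells they were 0.56 (SE 0.127, adjusted p = 0.0381; 2.01%) and 0.48 (SE 0.119, adjusted p = 0.0460; 2.57%). Each of these 4 calls was lost without some libraries, among them Dnmt3a replicates 1 and 4 in all 4 cases. The first, the firmest, had adjusted p = 0.0516 and 0.0513 without these, and 0.102, 0.11 and 0.0544 without Dnmt3a;Tnfr1KO replicate 1, 2 or 3. Psme1 and its neighbour and partner Psme2 varied together over the 14 mice (Pearson r = 0.738, permutation, adjusted p = 0.00888; rho = 0.732, adjusted p = 0.0126; r = 0.816 without the 2 farthest mice and 0.709 within groups).

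**Figure D5:**
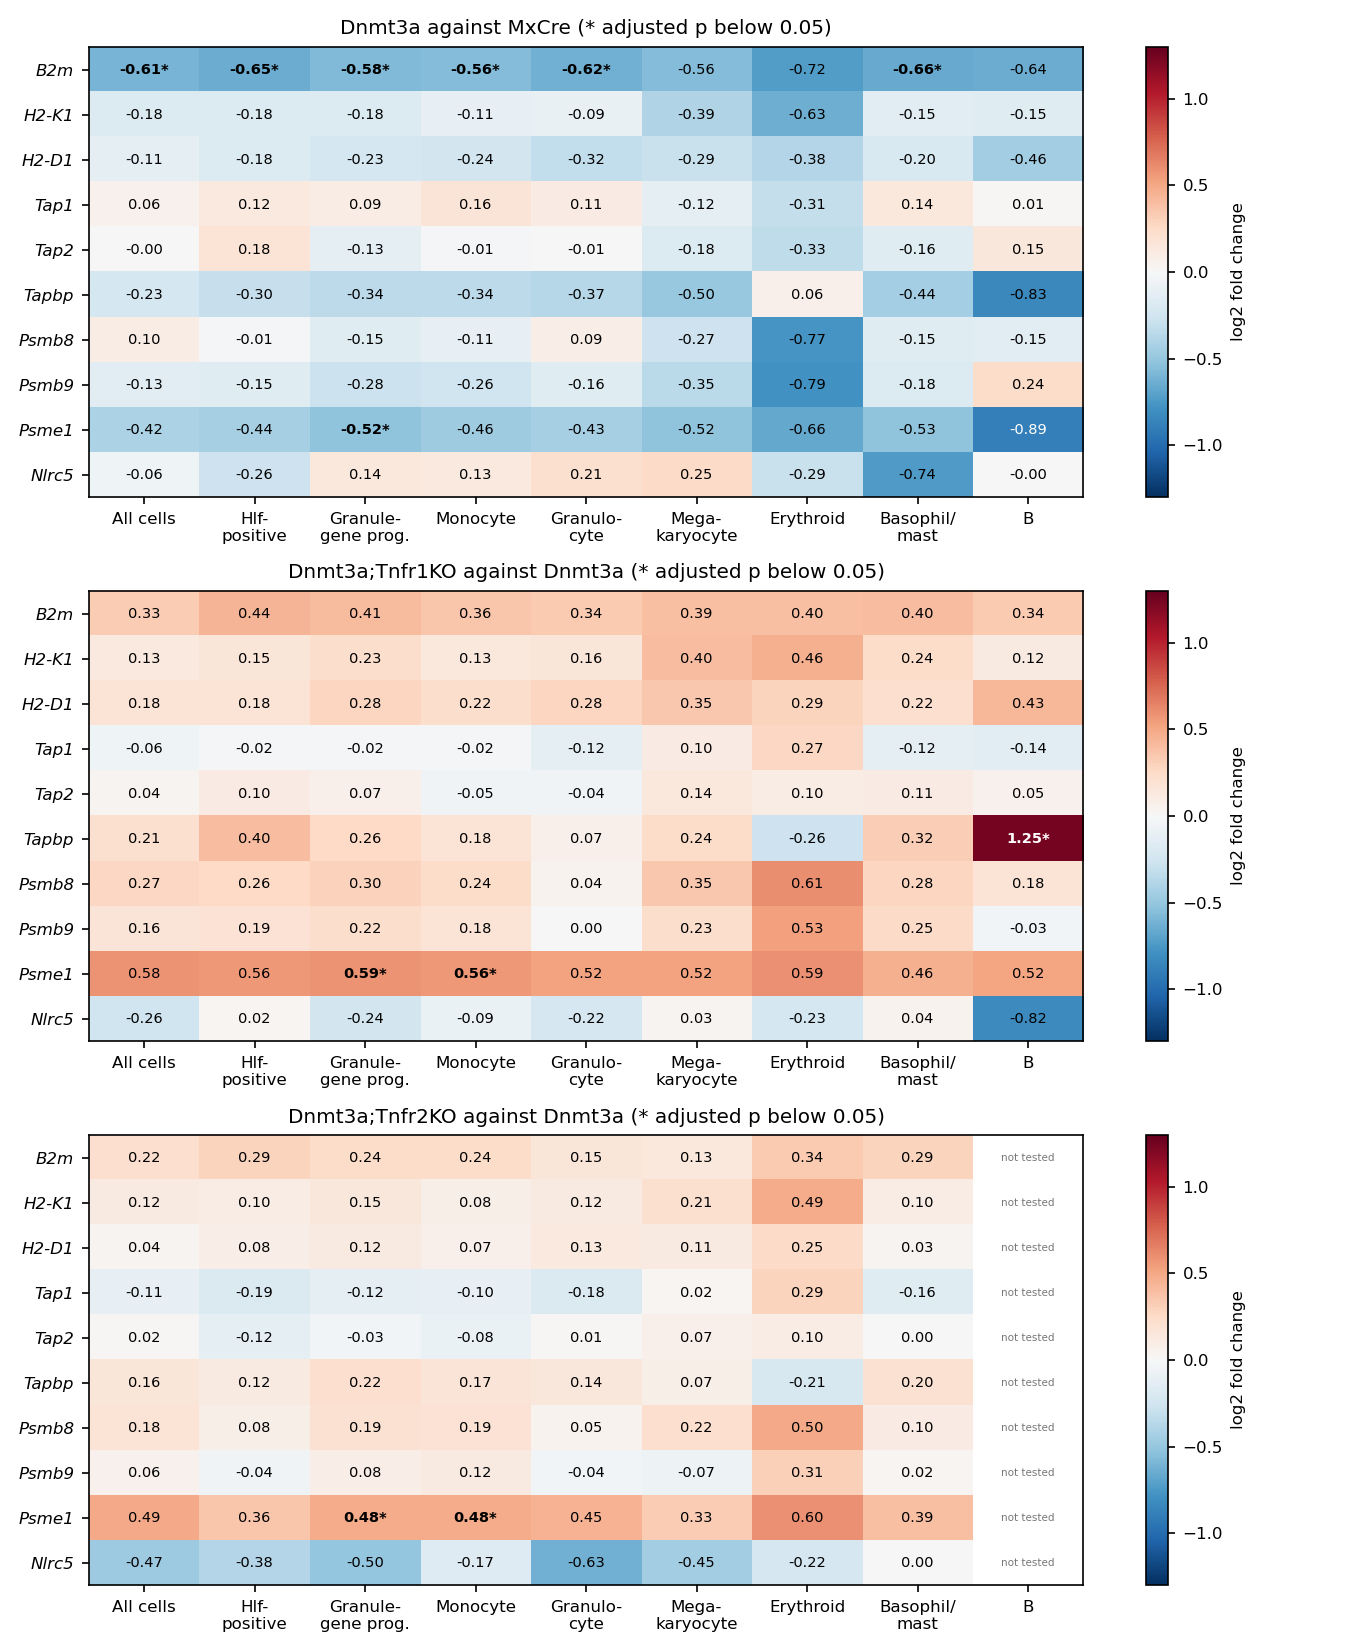
Log2 fold change of the 10 genes (vertical axes) in all cells and 8 lineages (horizontal axes) for Dnmt3a against MxCre, Dnmt3a;Tnfr1KO against Dnmt3a and Dnmt3a;Tnfr2KO against Dnmt3a, as color and number, with a star where edgeR's adjusted p is below 0.05. B2m is starred lower in all cells and 5 lineages in the top panel, Psme1 is starred higher in 2 lineages in the other panels, and the 3 panels share the 4 Dnmt3a mice.

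One more member was called, in B-like cells. Tapbp was at 35.7, 48.8 and 59.3 CPM in Dnmt3a replicates 1, 3 and 4, at 101, 99.1 and 134 in the libraries labelled Dnmt3a;Tnfr1KO and at 111 and 66.4 in MxCre replicates 1 and 3. The UMIs behind these levels were 58, 68 and 1186 in the Dnmt3a mice, 13, 138 and 72 in the Dnmt3a;Tnfr1KO mice, and 13 and 26 in the MxCre mice. The difference between Dnmt3a;Tnfr1KO and Dnmt3a was 1.25 (SE 0.267, edgeR adjusted p = 0.0083), without overlap, and its adjusted p was 0.0716 without Dnmt3a;Tnfr1KO replicate 3, 0.0597 with cells of at least 3000 UMIs and 0.0537 with the replicate block. In this comparison 12.9% of all genes were called, and the B-like cells themselves differed in stage markers. Ms4a1, which encodes CD20 of later B cells, was at 33.2, 217 and 27.9 in the Dnmt3a mice and at 692, 883 and 1050.3 in the Dnmt3a;Tnfr1KO mice, and Vpreb3 of early B cells was at 1872, 2031 and 3062 and at 1368, 1208 and 1514. Their part in the Tapbp difference was not tested. Over the lineages, 3 of 80 pairs of member and lineage were called for Dnmt3a;Tnfr1KO against Dnmt3a (3.75%, against 2.66% of all pairs) and 2 of 70 for Dnmt3a;Tnfr2KO against Dnmt3a (2.86%, against 1.7%).

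The 2 receptor knockouts were then set against each other. By edgeR 0 members were called over all cells (0.192% of all genes) and 0 pairs within lineages (0.146% of all pairs); 0 members had an unadjusted p below 0.05 in all cells (4% of all genes) and DESeq2 called 0 (0.679%). By sign all 10 members were lower in Dnmt3a;Tnfr2KO than in the libraries labelled Dnmt3a;Tnfr1KO, by -0.21 to -0.01, with a median of -0.09 against 0.02 for all genes. None of the 10 separated the groups without overlap, as 5.67% of all genes do.

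Against the MxCre controls, the receptor knockout groups had no member called by edgeR in all cells (0.39% of all genes for Dnmt3a;Tnfr1KO and 0.467% for Dnmt3a;Tnfr2KO) or within lineages (0.224 and 0.436% of all pairs). At an unadjusted p below 0.05 there were 1 and 2 members in all cells (12.1 and 15.7% of all genes), and DESeq2 called 0 in both (3.26 and 2.87%). B2m was -0.28 (SE 0.144, adjusted p = 0.484) and -0.39 (SE 0.134, adjusted p = 0.211), and all 11 mice with the Dnmt3a genotype lay below the 3 MxCre mice, as is so for 2.55% of all genes. Nlrc5 was at 9.30, 8.84 and 9.59 CPM in the MxCre mice, 6.83, 7.21 and 8.28 in the libraries labelled Dnmt3a;Tnfr1KO and 5.83, 6.83, 7.85 and 5.15 in the Dnmt3a;Tnfr2KO mice. Both knockout groups lay below the controls for B2m and Nlrc5, where 13.3 and 9.87% of all genes do, and neither Nlrc5 difference passed the test (-0.31, adjusted p = 0.565 and -0.53, SE 0.182, adjusted p = 0.213). The Dnmt3a mice were at 9.36, 7.14, 7.28 and 11.8 for Nlrc5, with values below, within and above those of the MxCre mice. In Hlf-positive cells Nlrc5 was at 14.1, 16.2 and 14.8 in MxCre mice and at 8.38, 11.1, 9.86 and 8.79 in Dnmt3a;Tnfr2KO mice, without overlap (-0.64, SE 0.184, edgeR adjusted p = 0.113). This was not called, though it was with no filter on low counts, with only the 2 groups compared and without Dnmt3a replicate 2.

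Among the other pathway genes, 38 of the 42 could be tested in all cells, and edgeR called 0 in each of the 6 genotype comparisons. At an unadjusted p below 0.05 there were 12 for Dnmt3a against MxCre, 11 and 14 for the receptor knockouts against Dnmt3a, 0 between them, and 8 and 14 against MxCre, where the shares of all genes were 23.5, 19.7, 23.1, 4, 12.1 and 15.7%. DESeq2 called 6, 1, 4, 0, 1 and 3 in the same order, against 9.86, 6.51, 7.01, 0.679, 3.26 and 2.87% of all genes. The nearest by edgeR was H2-T23, which encodes the nonclassical molecule Qa-1, at -0.81 (adjusted p = 0.0585) for Dnmt3a against MxCre.

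In Hlf-positive cells 3 pathway genes passed the test in a genotype comparison. Cd1d1 encodes a class I-like molecule that presents lipids and also pairs with beta-2 microglobulin. It was at 16.96, 18.4 and 17.8 CPM in the MxCre mice, 16.4, 22.7, 17.5 and 20.05 in Dnmt3a, 32.0, 31.8 and 32.8 in Dnmt3a;Tnfr1KO and 29.2, 28.9, 22.6 and 28.4 in Dnmt3a;Tnfr2KO mice. The Dnmt3a;Tnfr1KO mice do not overlap with any other group. The fold change was 0.76 (SE 0.127, edgeR adjusted p = 0.0127; 0.769% of genes called there) against Dnmt3a and 0.88 (SE 0.132, adjusted p = 0.00385; 1.14%) against MxCre for Dnmt3a;Tnfr1KO. For Dnmt3a;Tnfr2KO it was 0.52 (SE 0.116, adjusted p = 0.0447; 0.794%) and 0.65 (SE 0.121, adjusted p = 0.0113; 1.4%). The call against MxCre for Dnmt3a;Tnfr1KO held in all 23 alternatives, and that for Dnmt3a;Tnfr2KO against Dnmt3a in 9 of 23.

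H2-T23 was lower in Hlf-positive cells of the Dnmt3a mice, at 92.8, 140.1, 97.8 and 135 against 196, 182 and 163 in MxCre mice (-0.62, SE 0.174, edgeR adjusted p = 0.0492; 4.81% of genes called there), and this call held in 11 of 23 alternatives. Socs1, an inhibitor of JAK signalling, was at 3.16, 4.47, 3.77 and 2.30 in the Dnmt3a mice and at 5.24, 7.99 and 9.11 in MxCre mice (-1.04, SE 0.252, adjusted p = 0.0265), and held in 18 of 23. The groups did not overlap for either gene. For this and the other statements on overlap of groups within a lineage, the share of all genes was not taken. Of the 38 pathway genes tested in Hlf-positive cells, 2 were called in this comparison, both lower, where 4.81% of all genes were called.

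Pathway genes were also called in other lineages. For Dnmt3a;Tnfr1KO against Dnmt3a, Cd1d1 was higher in basophil/mast-like cells (1.05, SE 0.203, edgeR adjusted p = 0.0153, 0.533% of genes called there) and granule-gene progenitors (0.81, SE 0.161, adjusted p = 0.0156, 5.23%). In the same comparison H2-T23 was higher in B-like cells (1.57, SE 0.377, adjusted p = 0.0154, 12.9%). These B-like cells differed in stage markers, as given for Tapbp, and the part of stage in the H2-T23 difference was not tested. For Dnmt3a;Tnfr2KO against Dnmt3a, H2-Q10, a class I heavy chain gene, was lower in granule-gene progenitors (-0.90, SE 0.241, adjusted p = 0.0441, 5.29% of genes called there). Whether the Cd1d1 difference varies between lineages was not tested.

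By a measure of likeness over the 14 mice, Pearson r between a gene's log2 level and the mean of the members' standardised levels, the nearest of 7471 genes were Ap2s1 (0.857), H2-M3 (0.837), Supt4a (0.834), Cstb (0.830) and Emd (0.826). Of these only H2-M3 is a gene of the pathway list.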

How the data were processed

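The deposited values are raw UMI counts per gene and cell barcode, which the authors made with Cell Ranger 6.0.0 on the mouse build mm10 (GRCm38), per the submitters' processing notes; per the labels' protocols the libraries are 3' 10x Chromium version 3.1. No column of another sample was used.

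Barcodes with at least 1000 UMIs, 500 genes and at most 10% mitochondrial UMIs were kept, and the cells with the most simulated doublets among their nearest neighbours were removed at 0.8% per 1000 cells (31 to 480 per library). Lineages were assigned by rule, not by clustering: at least 3 markers of a lineage with at least 2 UMIs each and more than of any other lineage; then at least 3 of 5 granule genes with at least 5 UMIs; then at least 1 Hlf UMI. Of the kept cells 13.3% sat at the marker minimum and 28.0% were 1 marker short of it.

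UMIs were summed per mouse, or per mouse and lineage with at least 20 cells, and fitted with edgeR 4.0.16 (R 4.3.3; TMM scaling, filterByExpr, quasi-likelihood test, 4 groups in 1 model), with Benjamini-Hochberg adjustment over all genes. Lineages were compared with the mouse as a block. Levels are CPM after TMM scaling. Ratios used exact paired permutation tests and relations 100000 permutations. Alternatives were DESeq2 1.42.0, RLE scaling, no filter on low counts, doublets kept, at least 3000 UMIs, at least 4 markers, cells thinned to 5000 UMIs for the lineage rule, no B and T/NK cells, a replicate block, only the 2 groups compared, and each library left out. Alternatives for single genes within lineages, for ratios, without TMM scaling between lineages, and for erythroid cells without Dnmt3a replicate 4 were chosen after seeing the data. The fits were tested on simulated data with a set spread. The fit of Dnmt3a against MxCre in all cells found 99 of 100 genes changed 2-fold and 56 of 100 changed 1.5-fold. The fit of erythroid against Hlf-positive cells found 100 and 99 of 100. This simulation left most of the 11164 genes fitted unchanged, while most genes were called between these lineages in the data. Its recovery may not carry over to them, and the load of so many changes on the scaling was not simulated. With 56 of 100 found at 1.5-fold, a member not called between genotypes can still differ.

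The 10 members are named throughout; a member's fold change is a result where it was called. The 5 most alike genes and the 42 pathway genes follow a written rule. Members, lists and tests were chosen with earlier results of these data known. Positions are RefSeq's for GRCm38.p6. Other software was Python 3.11.15, numpy 2.4.6, scipy 1.17.1, pandas 2.3.3, scikit-learn 1.9.0 and matplotlib 3.10.9.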

Additional observations from a re-analysis of the deposited data

Results flagged for a closer look

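In the groups of 4 mice, the gap of the highest or lowest mouse to its nearest neighbour was compared with the group's range for each of the 10 genes, which makes 20 groups. Tap2 stood out in both. In the Dnmt3a group replicate 2 was at 83.9 CPM and the other 3 mice were at 69.1 to 71.6, a gap of 0.830 of the range. In the Dnmt3a;Tnfr2KO group replicate 4 was at 87.0 and the others at 68.8 to 71.9, a gap of 0.833. Chance alone marks about 1 in 20 groups, and here 2 of 20 were marked.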

How the results depend on the processing

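Alternatives were counted for 54 pairs of member and lineage, the 53 called against Hlf-positive cells and Tapbp in erythroid cells. Of these 658 alternatives, 627 kept direction and call, 28 lost the call, 2 gained it and 1 reversed. The 2 gains were Tapbp in erythroid cells, at -0.27 without the mice numbered 4 and at -0.25 without Dnmt3a replicate 4. The reversal was B2m in basophil/mast cells, at 0.0336 with cells thinned to 5000 UMIs. Gains among the other pairs not called are not in this count. Of 406 alternatives for genotype folds of single genes, 256 kept the call, 150 lost it and 0 reversed. All 52 for ratios kept theirs. With no scaling between the sums, chosen after seeing the data and without a test, 25 of 54 lineage differences moved by less than the SD over mice, 23 by more with the same sign, and 6 changed sign: Psmb9 to -0.19 in granule-gene progenitors and -0.10 in monocyte cells, Tapbp to -0.18 in monocyte and -0.17 in granulocyte cells, Psme1 to -0.18 in monocyte and H2-D1 to -0.0191 in basophil/mast cells.

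For Dnmt3a against MxCre in all cells the count of members called was 1 and became 0 with no filter on low counts, with the replicate block and with only the 2 groups compared, and ran from 0 to 1 with a library left out. Within lineages the 6 pairs became 12 by DESeq2, 3 with the block, 1 with only the 2 groups and 2 with at least 4 markers, and ran from 0 to 14 with a library left out: 0 without MxCre replicate 1 or 2, 14 without Dnmt3a replicate 2. For Dnmt3a;Tnfr1KO against Dnmt3a the count in all cells was 0 and 1 by DESeq2, 0 to 0 with a library left out, and the 3 pairs became 7 by DESeq2 and 0 with the block, and ran from 0 (without Dnmt3a;Tnfr1KO replicate 3) to 9 (without Dnmt3a replicate 2). For Dnmt3a;Tnfr2KO against Dnmt3a the count in all cells was 0 and 1 by DESeq2, 0 to 0 with a library left out. The 2 pairs became 3 by DESeq2, 0 with the block and with only the 2 groups, 1 with 4 markers and 1 with thinned cells. They ran from 0 to 2 with a library left out. For Dnmt3a;Tnfr2KO against MxCre the 0 pairs became 1 with no filter and 1 with only the 2 groups (0 to 1 with a library left out); in all cells, and for Dnmt3a;Tnfr1KO against MxCre and against Dnmt3a;Tnfr2KO, it stayed 0 to 0. The cause of these moves was not tested. Leaving out a library gives a fit with fewer mice, and without Dnmt3a replicate 2 the megakaryocyte arm holds 1 Dnmt3a library, assumed to vary like the other groups.

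Leaving out all mice of 1 number changed the members called against Hlf-positive cells to 5 to 6 in granule-gene progenitors, 8 to 9 in monocyte, 9 to 9 in granulocyte, 8 to 9 in megakaryocyte, 9 to 10 in erythroid, 6 to 8 in basophil/mast and 2 to 3 in B cells. With no replicate block, that is without the mouse as a block, 3 were called in basophil/mast cells.

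Replicate numbers did not pair the mice: deviations of same-numbered mice correlated from -0.417 to 0.396 (median 0.00832, 19 pairs) and those of other mice had a median of -0.0264 (54 pairs). Dendritic cells reached 20 cells in no library and T/NK cells in 2, so neither was tested. Depth limits Nlrc5 most, and UMIs are counts of captured molecules in 1 library per mouse.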
